A study of Mus musculus with 48 samples.

Results

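10 peroxidase genes of mouse fat, the glutathione peroxidases Gpx1, Gpx3, Gpx4, Gpx7 and Gpx8 and the peroxiredoxins Prdx1, Prdx2, Prdx3, Prdx5 and Prdx6, were followed in 3 fat depots. The genes were taken by symbol and not by any measured value: each matched 1 of the 47729 rows of the deposited count table. The study sequenced poly(A) RNA of brown (BAT), subcutaneous (SFAT) and visceral (EFAT) fat from male mice. The mice were Cth+/+ or Cth-/-. For 6 days they were fed either the control diet (CTRL) or one without cystine (CysF). Cth codes for cystathionine gamma-lyase, which releases cysteine from cystathionine. Each depot had 4 groups (Cth+/+ CTRL, Cth+/+ CysF, Cth-/- CTRL and Cth-/- CysF) of 4 libraries, which gave 12 groups and 48 libraries. The sources used here give neither age, strain nor the design of the Cth allele. They do not say that every library is a separate mouse, so p-values measure the spread between libraries. In whole tissue, fewer cells of a type and less RNA per cell cannot be told apart.

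Glutathione peroxidases reduce peroxides with electrons from glutathione, a tripeptide built from cysteine, glutamate and glycine, whereas most peroxiredoxins draw their electrons from thioredoxin. Gpx1, Gpx3 and Gpx4 carry selenocysteine at the active site. Gpx7 and Gpx8 carry cysteine there and work in the endoplasmic reticulum, where they pass oxidising power to protein folding. In peroxiredoxins a conserved peroxidatic cysteine attacks the peroxide, and Gpx4 and Prdx6 are known for acting on oxidised phospholipids.

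The codon that holds the catalytic residue is shown here for all 10 genes, because it separates the selenocysteine enzymes from the cysteine enzymes. Each line gives 39 bases of the coding strand from GENCODE M21 (GRCm38), 5′ to 3′, with the catalytic codon in capitals.
Gpx1: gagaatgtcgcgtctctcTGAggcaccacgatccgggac
Gpx3: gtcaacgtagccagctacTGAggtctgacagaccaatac
Gpx4: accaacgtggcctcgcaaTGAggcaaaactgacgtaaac
Gpx7: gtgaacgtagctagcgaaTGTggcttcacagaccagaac
Gpx8: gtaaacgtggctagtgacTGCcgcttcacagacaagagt
Prdx1: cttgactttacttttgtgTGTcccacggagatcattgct
Prdx2: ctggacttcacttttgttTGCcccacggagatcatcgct
Prdx3: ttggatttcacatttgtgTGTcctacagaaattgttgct
Prdx5: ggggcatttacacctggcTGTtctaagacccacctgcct
Prdx6: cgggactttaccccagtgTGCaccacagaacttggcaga

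In Gpx1, Gpx3 and Gpx4 the catalytic codon is an in-frame TGA that the annotation marks as selenocysteine. It is codon 47 of Gpx1 (chr9:108339451-108339453, plus strand, exon 1 of 2), codon 73 of Gpx3 (chr11:54907256-54907258, plus strand, exon 2 of 5) and codon 73 of Gpx4 (chr10:80054737-80054739, plus strand, exon 3 of 7). In the other 7 genes it is a cysteine codon, TGT or TGC. It lies in exon 2 of 3 of both Gpx7 (chr4:108403430-108403432, minus strand) and Gpx8 (chr13:113045661-113045663, minus strand). Gpx7 and Gpx8 share 30 of the 39 bases, Gpx3 and Gpx7 share 29, and Prdx1 and Prdx2 share 34. Prdx1 (chromosome 4) and Prdx2 (chromosome 8) had fractional estimated counts in 46 and 48 of the 48 libraries, so part of their reads was divided between similar sequences and their values carry that uncertainty. Prdx2 overlaps Junb by 351 bases (median 12.9 CPM, 19.8% of Prdx2) and Rnaseh2a by 181 (6.78 CPM, 10.3%). Prdx5 overlaps Trmt112 by 409 (13.3 CPM, 13.1% of Prdx5), and all of Gpx8 lies within Cdc20b (median 0 CPM). Each of these neighbours is on the opposite strand. Whether the counting used strand is not given in the sources used here. In the 250 bases upstream of the annotated start, the antioxidant response element TGACNNNGC, read on both strands, was found in Prdx1 alone among the 9 genes with a RefSeq promoter (GRCm38.p6). Of all 32851 such windows, 10.2% hold it.

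Libraries held 16.2 to 46.0 M estimated reads. Counts of the 10 genes ran from 21 reads in 1 library (Gpx7) to 86865 (Gpx3), so that Gpx7 is the member measured with the fewest reads. Cth had 8 to 389 reads in the 24 Cth+/+ libraries and 0 to 6 in the 24 Cth-/- libraries. The adipocyte marker Adipoq was at 441.7 CPM or more in every library, and Ucp1, which defines brown fat, was at 2320 CPM or more in every BAT library. Some libraries stood apart. BAT replicates 10 and 12 and SFAT replicate 20 did so by their mitochondrial transcripts. SFAT replicate 14 did so by B cell genes, and EFAT replicates 16 and 20 by genes of epididymal epithelium. The fits without them were added after seeing the data. EFAT replicate 17, with 14.69% mitochondrial transcripts beside 14.43% in replicate 20, was not left out. The libraries were also divided into 2 sets by a pseudogene transcript, Gm43512. Set A had under 0.1 CPM of it, set B more, and each depot had 9 and 7 libraries of them. Some values lay close to this cut: set A reached 0.0761 CPM (SFAT replicate 18) and set B began at 0.107 CPM (EFAT replicate 2). Mitochondrial transcripts made up 21.8 to 27.9% of reads in set A and 28.6 to 45.7% in set B of BAT, with overlapping ranges in the white depots. The sets were not balanced over the groups. In EFAT of Cth-/- mice, 3 of 4 CTRL libraries were in set A and 3 of 4 CysF libraries in set B. In BAT and SFAT the only Cth-/- CysF library of set B was replicate 20, so each set B value of the Cth-/- CysF group there rests on that 1 library.

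Levels are given as CPM, the estimated count relative to a library size scaled by the trimmed mean of M-values over the 48 libraries. To compare genes with each other they were divided by transcript length (CPM per kb). In Cth+/+ mice on the control diet, Gpx4 stood first and Gpx3 second in each depot. BAT had 1204 ± 69.8 CPM per kb of Gpx4 (SD, n = 4) and 559 ± 85.1 of Gpx3. In SFAT the levels were 379 ± 7.90 and 189 ± 75.4, and in EFAT 332 ± 78.7 and 219.6 ± 84.4 CPM per kb. Gpx7 was the lowest of the 10 throughout, at 2.83, 6.63 and 6.22 CPM per kb in BAT, SFAT and EFAT. The orders in between differed: Prdx3, the mitochondrial peroxiredoxin, was the third in BAT (266 ± 46.2 CPM per kb) and the seventh in both white depots (64.4 ± 17.4 in SFAT, 56.6 ± 11.8 in EFAT). Over all annotated exons its levels were the same, but those of Prdx5 (45.4 and 49.1 CPM per kb in SFAT and EFAT) and, in SFAT, Prdx6 (50.6) fell below them, which made Prdx3 the fifth in SFAT and the sixth in EFAT. Of the 9 neighbouring pairs in each order, the library ranges overlapped in 4 in BAT, 6 in SFAT and 5 in EFAT. Those of EFAT included Gpx4 and Gpx3, whose order turned when all annotated exons were used as the length (184 and 193 CPM per kb).

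**Figure D1:**
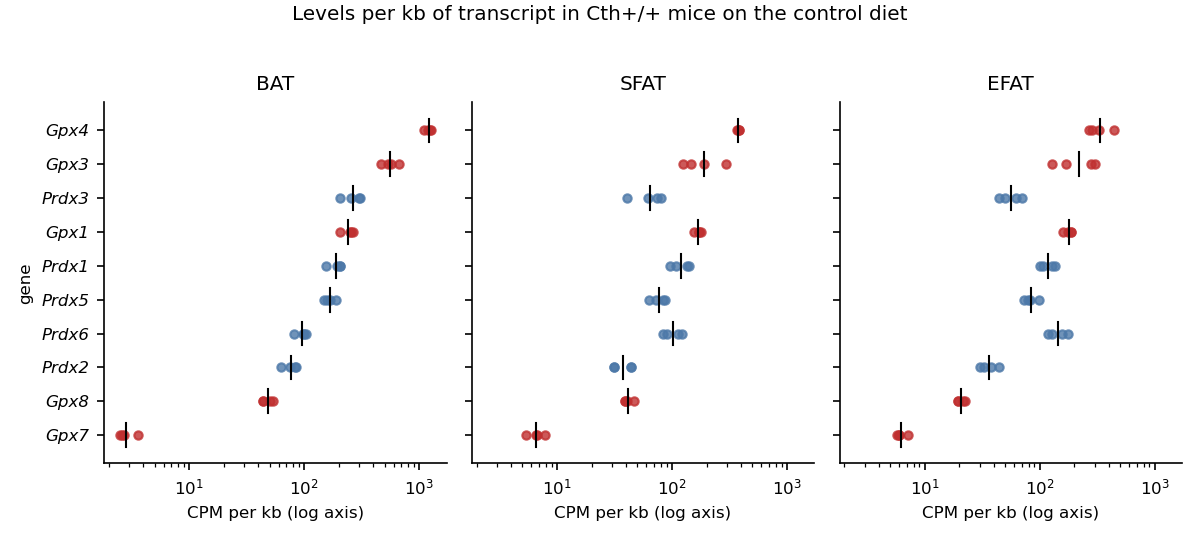
Level of each gene per kb of transcript (log axis) in the 4 libraries of Cth+/+ mice on the control diet, 1 panel per depot, glutathione peroxidases in red and peroxiredoxins in blue, black bars at the means. Genes stand in the order of BAT; Gpx4 and Gpx3 lead in each depot, Gpx7 is lowest, and Prdx3 stands lower in the order of SFAT and EFAT than in that of BAT.

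Brown fat held more of most of these transcripts than white fat. Differences were tested with edgeR's quasi-likelihood test, and each adjusted p below is its Benjamini-Hochberg value over all genes tested. Between SFAT and BAT of Cth+/+ CTRL mice, 8 of the 10 genes differed, against 53.0% of all genes: 7 were lower in SFAT. Between EFAT and BAT 9 differed, against 60.0%, with 8 lower in EFAT. Prdx3 had the largest difference in both, a log2 fold change of -2.05 ± 0.24 (SE) in SFAT and -2.23 ± 0.24 in EFAT relative to BAT. Gpx4 followed at -1.67 ± 0.16 and -1.86 ± 0.16. Prdx5 (-1.11 ± 0.20 and -0.997 ± 0.20), Prdx2 (-1.02 ± 0.19 and -1.07 ± 0.19) and Prdx1 (-0.66 ± 0.16 and -0.68 ± 0.16) were lower in both. Gpx7 alone was higher in white fat, by 1.23 ± 0.16 in SFAT (adjusted p = 4.308e-08) and 1.13 ± 0.16 in EFAT (adjusted p = 1.842e-07). Gpx3 (-1.57 ± 0.40 and -1.35 ± 0.40) and Gpx1 (-0.52 ± 0.12 and -0.44 ± 0.12) were also lower in SFAT and EFAT. Prdx6 missed the threshold in both (0.10 ± 0.30 and 0.60 ± 0.30), as did Gpx8 in SFAT (-0.21 ± 0.20). In EFAT Gpx8 was lower than in BAT (-1.22 ± 0.20, adjusted p = 2.219e-06). Within set A alone Gpx1 lost its call in both white depots (-0.42 and -0.22, adjusted p = 0.0924 and 0.477) and Gpx3 in EFAT (-0.997, adjusted p = 0.111); within set B Gpx3 lost it in SFAT (-1.19, adjusted p = 0.0609). Prdx6 passed in EFAT with the set as a term (0.69, adjusted p = 0.0284) and within set B (0.61, adjusted p = 0.0384). Between the white depots only Gpx8 differed, being lower in EFAT by a log2 fold change of -1.01 ± 0.20 (adjusted p = 0.0003658), against 15.2% of all genes.

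The cystine-free diet was compared with the control diet in Cth-/- mice, in which dietary cystine cannot be replaced through this enzyme. Gpx3 was about 4 times higher in both white depots, Gpx7 fell in all 3 depots, and Prdx3 rose in BAT and SFAT. In EFAT Prdx1, Prdx2 and Prdx5 fell. In BAT 3 of the 10 genes passed the threshold (2 higher, 1 lower), against 18.0% of the 14528 genes tested. In SFAT 3 passed (2 higher, 1 lower), against 25.4% of 16555, and in EFAT 5 (1 higher, 4 lower), against 28.8% of 17248. The median log2 fold change of the 10 was 0.19, 0.08 and -0.47 in BAT, SFAT and EFAT, against -0.01, 0.03 and 0.07 for all genes tested. The libraries of the 2 groups did not overlap for 2 genes in BAT (21.9% of all genes), for 3 in SFAT (27.9%) and for 2 in EFAT (27.0%). All 10 genes passed the filter on low counts in every depot. Without the libraries that stood apart, every call not named below with such a value held: Gpx7 (-0.61), Prdx3 (0.53) and Prdx6 (0.53) in BAT, Gpx7 (-1.06) and Prdx3 (0.99) in SFAT, and Gpx7 (-0.77) and Prdx5 (-0.91) in EFAT. Other alternatives, 16 for each call, did take calls away. In BAT Gpx7, Prdx3 and Prdx6 lost theirs in 9, 6 and 1 of them, and in SFAT Prdx3 did in 1. In EFAT Prdx1 and Prdx2 each lost theirs in 9. Gpx3, Gpx7 and Prdx5 lost theirs in 2 there, the fits within a set, with 1 library on one side.

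**Figure D2:**
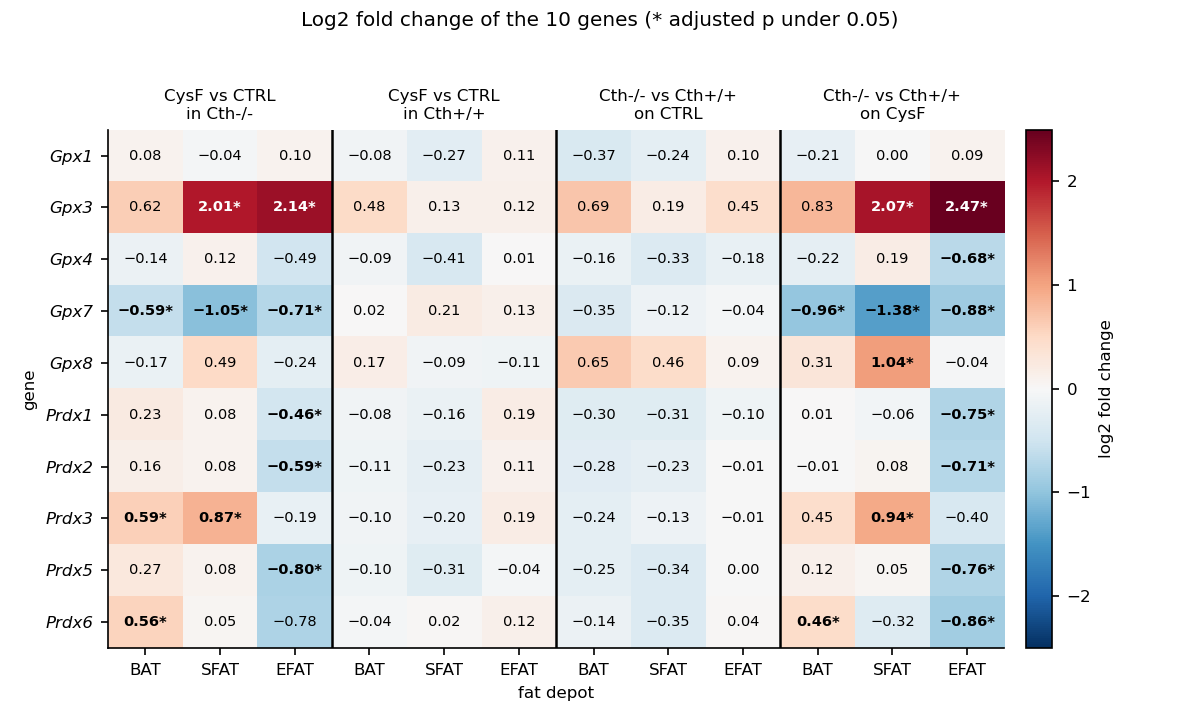
Log2 fold change of each gene in the 2 diet and 2 genotype comparisons of each depot, with an asterisk where edgeR's adjusted p was under 0.05. Called values stand in the comparisons that hold the Cth-/- CysF group; none of the 10 genes was called for diet in Cth+/+ mice or for genotype on the control diet.

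Gpx3, the plasma glutathione peroxidase that cells secrete, had the largest change of the 10. In SFAT of Cth-/- mice it was at 288.6, 377.8, 297.4 and 424.6 CPM on the control diet and at 748.7, 1251, 900.9 and 2609 CPM on the cystine-free diet. Every CysF library was above every CTRL library, with replicate 20 the highest. The log2 fold change was 2.01 ± 0.42 (4.02-fold, adjusted p = 0.00287), and 1.42 (adjusted p = 0.0238) without replicates 14 and 20. In EFAT the control libraries had 270.6, 609.7, 366.0 and 674.1 CPM and the CysF libraries 1072, 2436, 1700 and 2881 CPM, again without overlap. The log2 fold change there was 2.14 ± 0.40 (4.42-fold, adjusted p = 0.001737). In BAT, where Gpx3 was already at 1412 ± 243 CPM (SD, n = 4) on the control diet, the CysF libraries had 1570, 1876, 2092 and 3057 CPM. The 2 groups overlapped there, and the log2 fold change of 0.62 ± 0.34 missed the threshold (adjusted p = 0.233). The mean of the Cth-/- CysF libraries was 2022 ± 799 CPM in EFAT and 2149 ± 642 CPM in BAT.

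**Figure D3:**
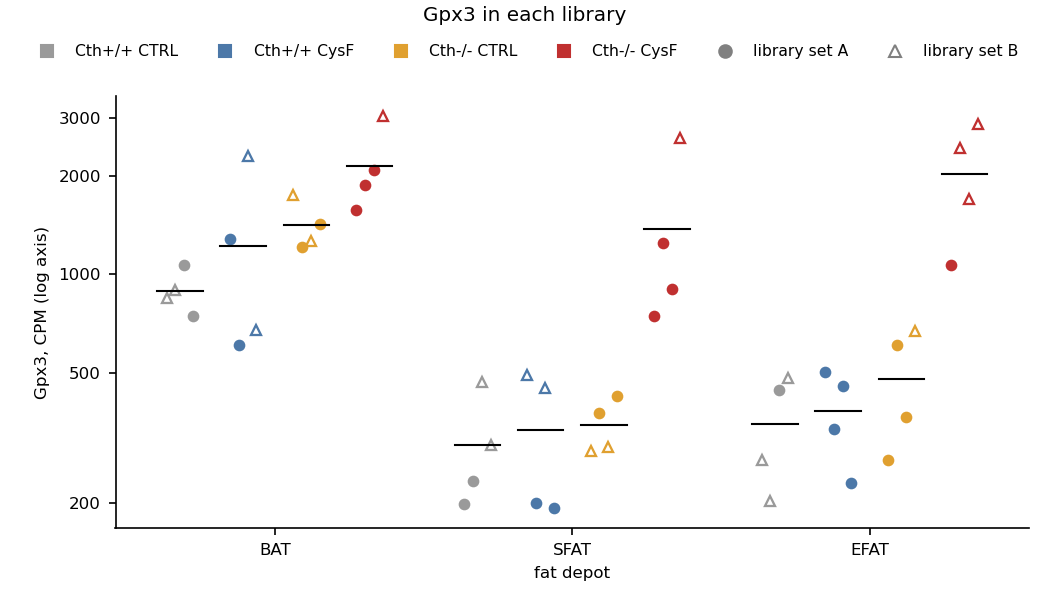
CPM of Gpx3 (log axis) in each of the 48 libraries, by depot and group, with a black bar at each group's mean; filled circles are library set A, open triangles set B. In SFAT and EFAT the 4 Cth-/- CysF libraries lie at 748.7 CPM or more and the other 24 white fat libraries at 674.1 CPM or less.

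The rise of Gpx3 was also read within each library set. In SFAT it was 1.27 within set A (adjusted p = 0.00432) and 3.17 within set B (adjusted p = 0.00191), where replicate 20 is the only CysF library. In EFAT the set A library of the CysF group (1072 CPM) was above its 3 CTRL partners, and the 3 CysF libraries of set B were above replicate 15, their only partner. These EFAT values, 1.37 in set A (adjusted p = 0.304) and 1.82 in set B (adjusted p = 0.191), did not pass, with 1 library on one side. With the set as a term the EFAT value was 1.93 (adjusted p = 0.00924). Genes of epididymal epithelium moved with the EFAT groups: 2 of the 3 tested rose, and the sum of the list was 0.596 to 41.5 CPM on CTRL and 23.0 to 776 CPM on CysF. In replicates 17 and 18 the list summed to 23.0 and 25.8 CPM, inside the CTRL range, while Gpx3 was at 2436 and 1700 CPM. Of that list Spint4 was at 0 in both Cth-/- groups of EFAT and Lcn5 also in the CTRL group. Without replicates 16 and 20, Gpx3 had a log2 fold change of 2.18 (adjusted p = 0.00525). In SFAT all 7 brown adipocyte markers rose on the diet, their sum going from 126.6 to 290.1 CPM to 288.2 to 1500 CPM, with none at 0. Their part in the Gpx3 change was not tested.

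Gpx1, the abundant cytosolic selenoenzyme, kept within narrow ranges. In Cth-/- mice BAT had 196 ± 27.3 CPM (SD, n = 4) on CTRL and 207 ± 9.37 on CysF. The levels were 155 ± 9.91 and 149.9 ± 6.63 CPM in SFAT, while EFAT had 206 ± 24.5 and 211 ± 7.65. Its groups overlapped in each depot, and the log2 fold changes were 0.08 ± 0.12, -0.04 ± 0.09 and 0.10 ± 0.16, none of which passed. Gpx4, the phospholipid hydroperoxide reductase that restrains ferroptosis, had 1010 ± 20.3 and 912 ± 97.3 CPM in BAT and 291 ± 39.2 and 313 ± 54.5 in SFAT. The log2 fold changes were -0.14 ± 0.09 and 0.12 ± 0.15. In EFAT Gpx4 had 320.0, 280.5, 309.4 and 216.5 CPM on CTRL and 227.2, 184.2, 195.8 and 162.9 CPM on CysF. The groups overlapped through replicates 15 (CTRL) and 16 (CysF). The difference of -0.49 ± 0.19 missed the threshold (adjusted p = 0.0695). It passed without replicate 15 (-0.60, adjusted p = 0.03098), without replicate 16 (-0.65, adjusted p = 0.0383), with DESeq2 (-0.54, adjusted p = 0.0409) and in a fit of the 2 groups alone (-0.53, adjusted p = 0.0422).

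Gpx7, a glutathione peroxidase of the endoplasmic reticulum with cysteine at its active site, fell in all 3 depots. In SFAT of Cth-/- mice it went from 7.524, 9.572, 6.426 and 8.16 CPM on CTRL to 3.755, 3.897, 4.386 and 3.077 CPM on CysF. No CysF library reached the lowest CTRL library. The log2 fold change was -1.05 ± 0.14 (adjusted p = 0.0001193), and it passed under all 16 alternatives tried. In EFAT the CTRL libraries had 7.966, 8.987, 7.128 and 7.191 CPM and the CysF libraries 6.092, 3.341, 5.352 and 3.516 CPM, again apart, with a log2 fold change of -0.71 ± 0.18 (adjusted p = 0.00935). Within set A and within set B of EFAT it was -0.40 (adjusted p = 0.475) and -0.79 (adjusted p = 0.314). In BAT it was at 2.625, 2.959, 2.687 and 2.926 CPM on CTRL and 1.729, 2.062, 1.931 and 1.689 CPM on CysF. These groups were also apart, with a log2 fold change of -0.59 ± 0.17 (adjusted p = 0.0266). That BAT call was lost without replicate 13, 14, 15, 16, 18 or 20 in turn, at values from -0.61 to -0.55 and adjusted p from 0.0503 to 0.0702. It was also lost with no filter on low counts (adjusted p = 0.0882) and within each set (adjusted p = 0.0735 and 0.488).

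Fibroblast and preadipocyte markers fell beside Gpx7: 6 of 8 passed as lower in BAT and 7 of 8 in SFAT. In EFAT 4 of 8 were lower and 1 was higher. Their summed level on CTRL and CysF in Cth-/- mice was 669.6 to 888.6 and 252.4 to 303.6 CPM in BAT, 4008 to 10370 and 1177 to 1509 CPM in SFAT, and 2413 to 2847 and 1756 to 1971 CPM in EFAT, with no marker at 0. Macrophage markers fell as well, 7 of 8 in BAT and 6 of 8 in each white depot. In BAT 6 of 8 skeletal muscle markers also fell, their sum going from 112.8 to 1186 CPM on CTRL to 3.846 to 178.4 CPM on CysF. Of the 6 red blood cell markers tested in BAT, 5 fell, with sums of 572.5 to 961.1 and 330.0 to 571.9 CPM. No marker of these lists was at 0. Of 7 adipocyte markers, 1 rose and 2 fell in BAT, 1 rose and 1 fell in SFAT, and 2 fell in EFAT. Of 6 endothelial markers, 2 rose in EFAT and none passed in BAT or SFAT. The part of these cell types in the changes of Gpx7, Prdx1, Prdx2, Prdx3, Prdx5 and Prdx6 was not tested.

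Gpx8, the second peroxidase of the endoplasmic reticulum, did not pass the threshold in any of the 3 depots. In SFAT of Cth-/- mice it had 44.45, 63.91, 53.13 and 79.48 CPM on CTRL and 77.9, 80.02, 78.59 and 99.28 CPM on CysF. Only replicate 15 of the CTRL group reached the CysF range. The log2 fold change of 0.49 ± 0.18 missed the threshold (adjusted p = 0.0568), and without replicate 15 it was 0.65 (adjusted p = 0.0175). It also passed with DESeq2 (0.49, adjusted p = 0.0477), and with the set as a term (0.505, adjusted p = 0.0463). Within set B it was 1.04 (adjusted p = 0.017), where the CysF group is replicate 20 alone (99.28 CPM), a library that stood apart, and within set A 0.14 (adjusted p = 0.312). In BAT the CTRL libraries of Gpx8 fell apart into 48.06 and 49.04 CPM (replicates 12 and 14, set B) and 102.3 and 109.2 CPM (replicates 13 and 15, set A), on both sides of the CysF libraries at 59.17 to 71.09 CPM. The BAT log2 fold change was -0.17 ± 0.24, and -0.63 within set A (adjusted p = 0.0188). In EFAT Gpx8 was at 23.0 ± 2.07 and 18.7 ± 1.79 CPM (SD, n = 4), a log2 fold change of -0.24 ± 0.11 (adjusted p = 0.11).

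**Figure D4:**
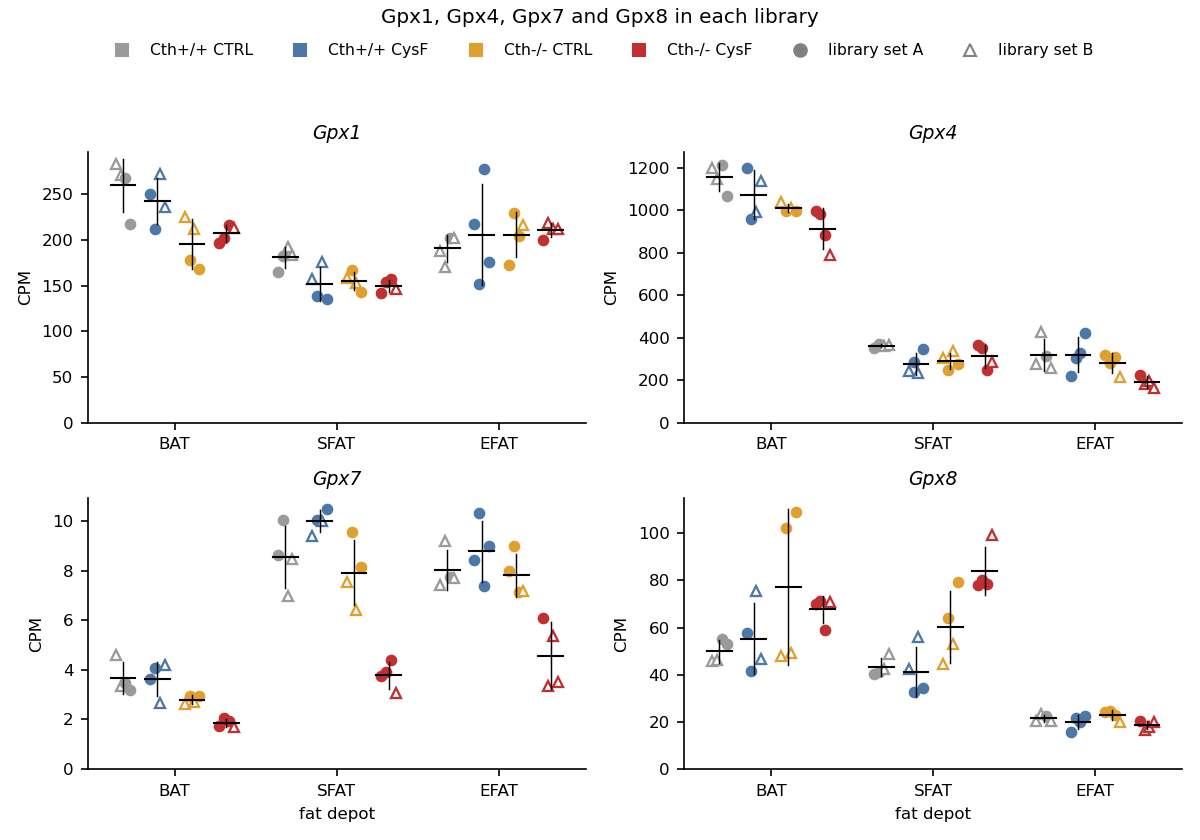
CPM of Gpx1, Gpx4, Gpx7 and Gpx8 in each library by depot and group (axes from 0), with means (horizontal bars) and SD (vertical bars, n = 4); circles are library set A, triangles set B. The Cth-/- CysF libraries of Gpx7 are below the Cth-/- CTRL libraries in each depot, whereas those of Gpx1 overlap.

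Prdx1 and Prdx2 are the abundant cytosolic peroxiredoxins of the 2-cysteine type. In EFAT of Cth-/- mice Prdx1 had 270.4, 232.5, 298.6 and 211.3 CPM on CTRL and 234.0, 151.6, 162.4 and 159.7 CPM on CysF. Replicate 16 alone made the groups overlap. The log2 fold change was -0.46 ± 0.15 (adjusted p = 0.0336). Prdx2 had 66.38, 56.09, 68.23 and 42.24 CPM on CTRL and 51.57, 28.94, 35.8 and 31.9 CPM on CysF, with replicates 15 and 16 in the overlap, and a log2 fold change of -0.59 ± 0.19 (adjusted p = 0.0291). Both calls were lost without replicate 12, 14, 17, 18 or 20 in turn: Prdx1 was then at -0.48 to -0.39 (adjusted p 0.0755 to 0.105) and Prdx2 at -0.64 to -0.50 (adjusted p 0.0614 to 0.0898). With the library set as a term they were at -0.29 (adjusted p = 0.124) and -0.38 (adjusted p = 0.122), and in a fit of the 2 groups alone at -0.50 (adjusted p = 0.0635) and -0.64 (adjusted p = 0.0588). Neither passed within a set (-0.20 and -0.39 for Prdx1, -0.31 and -0.36 for Prdx2). Without replicates 16 and 20, which hold the epididymal genes, they were at -0.61 (adjusted p = 0.0253) and -0.77 (adjusted p = 0.0267). In BAT the log2 fold changes were 0.23 ± 0.14 and 0.16 ± 0.14, in SFAT 0.08 ± 0.16 and 0.08 ± 0.19, and the groups overlapped.

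Prdx3, which reduces hydrogen peroxide in the mitochondrial matrix, rose in BAT and SFAT. In SFAT of Cth-/- mice it was at 85.99, 84.99, 88.87 and 90.26 CPM on CTRL and at 192.8, 187.3, 135.9 and 120.8 CPM on CysF. The groups were apart, with a log2 fold change of 0.87 ± 0.22 (adjusted p = 0.01003), and 0.48 within set B (adjusted p = 0.182). In BAT it had 277.5, 369.9, 274.9 and 384.9 CPM on CTRL and 528.9, 561.5, 504.0 and 368.1 CPM on CysF, where replicate 20 fell within the CTRL range. The BAT log2 fold change was 0.59 ± 0.18 (adjusted p = 0.0335). Within set A, however, the 3 CysF libraries (504.0 CPM or more) were above both CTRL libraries (0.53, adjusted p = 0.0087), and within set B replicate 20 was above both of its partners (0.45, adjusted p = 0.372). The call was lost without replicate 12, 14, 16, 17 or 18 in turn, at 0.52 to 0.58 (adjusted p 0.0721 to 0.101). In EFAT Prdx3 was at 83.2 ± 27.9 CPM on CTRL and 69.7 ± 13.3 on CysF, a log2 fold change of -0.19 ± 0.23. Brown adipocyte markers moved beside Prdx3 in SFAT, and Ucp1 did so in BAT. In SFAT all 7 rose, as given with Gpx3, with a median log2 fold change of 2.03. In BAT 1 of 7 passed as higher, and their sum was 4416 to 7301 CPM on CTRL and 10350 to 13060 CPM on CysF. Prdx3 itself was lower in SFAT than in BAT of Cth+/+ CTRL mice, as described above. The part of these markers in its rise was not tested.

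Prdx5, a peroxiredoxin of mitochondria, peroxisomes and cytosol, fell in EFAT. Its libraries there were at 123.5, 98.6, 119.8 and 78.63 CPM on CTRL and 85.36, 49.06, 57.43 and 40.8 CPM on CysF in Cth-/- mice. Replicates 15 and 16 made the groups overlap, but replicate 16 was below its 3 set A partners and the other CysF libraries were below replicate 15, their set B partner. The log2 fold change was -0.80 ± 0.20 (adjusted p = 0.0108), -0.42 within set A (adjusted p = 0.503) and -0.65 within set B (adjusted p = 0.282). In BAT it was 0.27 ± 0.13 (adjusted p = 0.162) and in SFAT 0.08 ± 0.20.

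Prdx6, the 1-cysteine peroxiredoxin that also has phospholipase activity, rose in BAT. It was at 189.8, 210.8, 191.3 and 219.4 CPM on CTRL and 286.5, 322.3, 347.7 and 235.6 CPM on CysF in Cth-/- mice. The groups did not overlap, and the log2 fold change was 0.56 ± 0.14 (adjusted p = 0.0112). Within set B, with replicate 20 as its only CysF library, it was 0.34 (adjusted p = 0.529). In EFAT it had 490.6, 239.8, 505.1 and 181.8 CPM on CTRL and 284.7, 192.6, 183.3 and 132.3 CPM on CysF. The CTRL libraries split into 2 high and 2 low, and the log2 fold change of -0.78 ± 0.32 missed the threshold (adjusted p = 0.0828). It passed without replicate 15 (-1.002, adjusted p = 0.0213), without replicate 16 (-1.08, adjusted p = 0.0327) and with DESeq2 (-0.84, adjusted p = 0.0417). The same replicate numbers were high and low in SFAT on CTRL: 12 and 14 had 244.8 and 257.6 CPM, 13 and 15 had 140.5 and 129.3 CPM. The SFAT diet difference was 0.05 ± 0.34 over all libraries, 0.71 within set A (adjusted p = 0.0156) and -0.92 within set B (adjusted p = 0.0101). The set B value compares 2 CTRL libraries with replicate 20 alone (131.4 CPM), which stood apart.

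**Figure D5:**
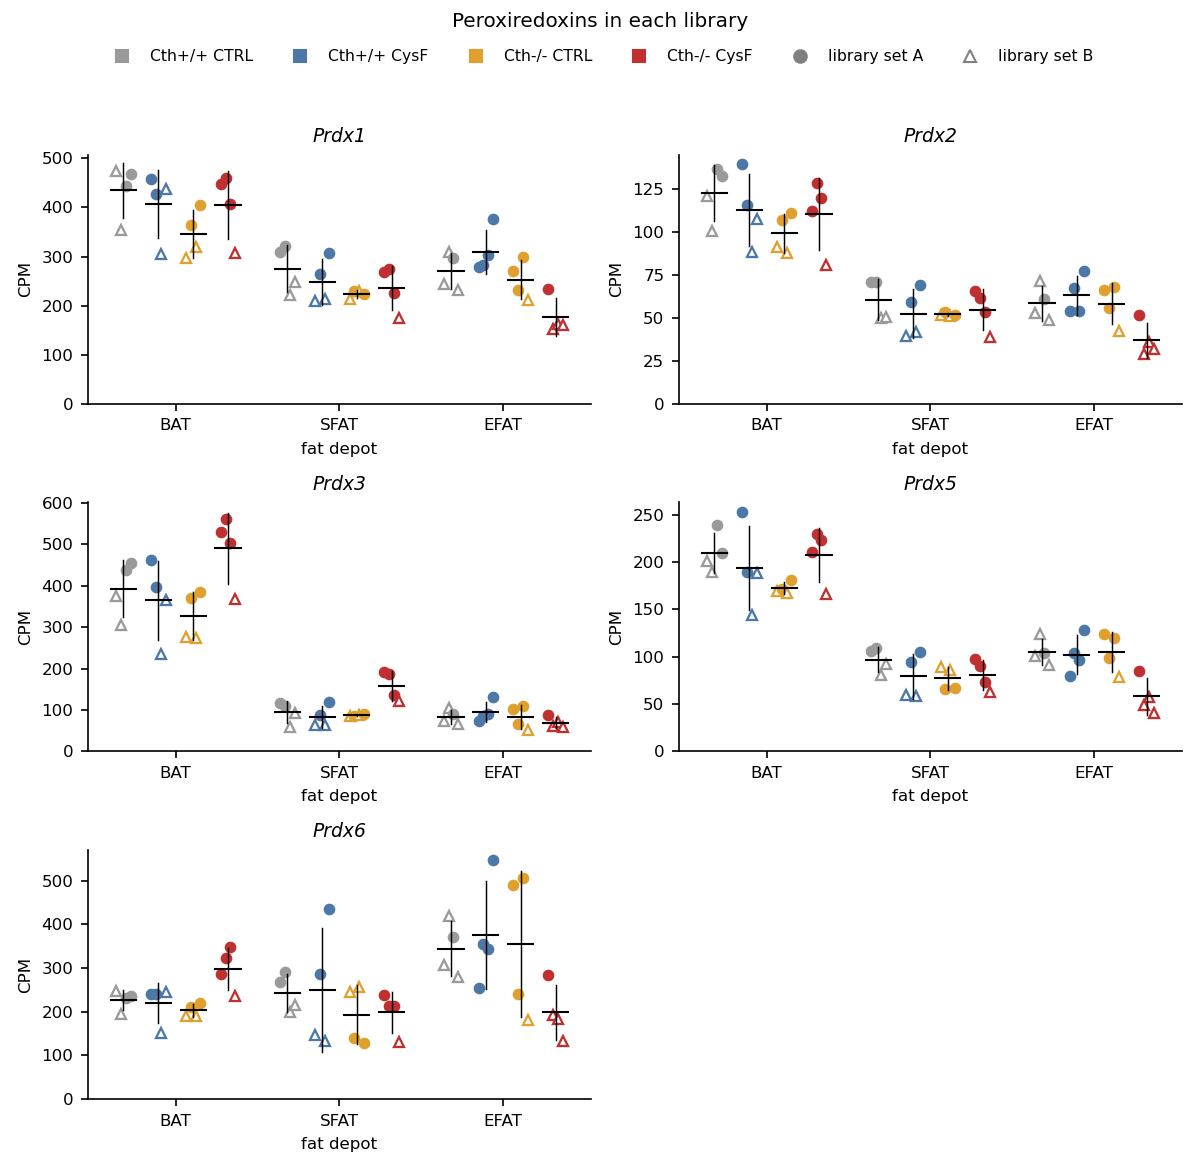
CPM of the 5 peroxiredoxins in each library by depot and group (axes from 0), with means (horizontal bars) and SD (vertical bars, n = 4); circles are library set A, triangles set B. The Cth-/- CysF group has the highest mean of Prdx3 and Prdx6 in BAT and the lowest mean of Prdx1, Prdx2 and Prdx5 in EFAT.

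In Cth+/+ mice none of the 10 genes passed between the diets in BAT, SFAT or EFAT, against 0.0826%, 0.0664% and 0.0% of all genes by edgeR. DESeq2 called none either, and an unadjusted p under 0.05 was found for 0, 2 and 0 of the 10. The 2 in SFAT were Gpx1 (-0.27 ± 0.09, adjusted p = 0.223) and Gpx4 (-0.41 ± 0.15, adjusted p = 0.241), both named after their values were seen. The share of all genes under that unadjusted cut is not given here, so these counts have no background beside them. Gpx3 had 891.5 ± 136 and 1219 ± 784 CPM (SD, n = 4) in BAT of Cth+/+ CTRL and CysF mice, and the wide spread came from replicate 10 at 2302 CPM. In SFAT it was at 301 ± 120.2 and 335 ± 161 CPM, and in EFAT at 350.1 ± 134.5 and 382 ± 123 CPM. Over all 10 genes the log2 fold changes ran from -0.11 (Prdx2) to 0.48 (Gpx3) in BAT, from -0.41 (Gpx4) to 0.21 (Gpx7) in SFAT and from -0.11 (Gpx8) to 0.19 (Prdx1) in EFAT. Gpx7, Gpx8 and the 5 peroxiredoxins overlapped between the diets in each depot. In SFAT the ranges of Gpx4 were apart, at 353.0 to 370.0 CPM on CTRL and 235.1 to 345.6 CPM on CysF.

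On the control diet, Cth-/- and Cth+/+ mice also gave no call among the 10 genes with edgeR, against shares of 2.1%, 0.103% and 0.0464% of all genes for BAT, SFAT and EFAT. Unadjusted p-values under 0.05 were found for 3, 3 and 0 of them, and DESeq2 called 1, 0 and 0. For neither count is the share of all genes given here, so they are not read against a background. The DESeq2 call was Gpx1 in BAT (-0.38, adjusted p = 0.0456), at 196 ± 27.3 CPM in Cth-/- and 260.1 ± 29.0 in Cth+/+ libraries. The edgeR value was -0.37 ± 0.12 (adjusted p = 0.119), and -0.38 once the library set was a term (adjusted p = 0.0296). In BAT 4 of the 10 genes had ranges that were apart between the genotypes, against 12.4% of all genes, although none of them passed. Gpx3 was the one with higher values in Cth-/- libraries, 1210 to 1750 CPM against 745.9 to 1071 (0.69 ± 0.34, adjusted p = 0.301). The other 3 had lower values there: Gpx4 at 1010 ± 20.3 and 1155 ± 66.9 CPM (-0.16 ± 0.09), Gpx7 at 2.80 ± 0.168 and 3.65 ± 0.645 CPM (-0.35 ± 0.17) and Prdx5 at 172 ± 6.32 and 209.5 ± 21.1 CPM (-0.25 ± 0.13). The remaining values in BAT were 0.65 ± 0.24 for Gpx8, -0.30 ± 0.14 for Prdx1, -0.28 ± 0.14 for Prdx2, -0.24 ± 0.18 for Prdx3 and -0.14 ± 0.14 for Prdx6. Over the 10 genes the values ran from -0.35 (Prdx6) to 0.46 (Gpx8) in SFAT, where the ranges of Gpx4 were apart, and from -0.18 (Gpx4) to 0.45 (Gpx3) in EFAT.

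On the cystine-free diet, the genotypes differed in 2 of the 10 genes for BAT (background 31.6% of all genes), 4 for SFAT (37.5%) and 7 for EFAT (39.7%). This comparison shares the Cth-/- CysF libraries with the diet comparison, so the 2 are not independent. Gpx7 was lower in Cth-/- mice in BAT (-0.96 ± 0.17), SFAT (-1.38 ± 0.14) and EFAT (-0.88 ± 0.18). Gpx3 was higher in SFAT (2.07 ± 0.42) and EFAT (2.47 ± 0.40), and in BAT it was at 0.83 ± 0.35 (adjusted p = 0.0798). The BAT value of Gpx3 depended on Cth+/+ replicate 10, without which it was 1.37 (adjusted p = 0.001778). In SFAT Prdx3 (0.94 ± 0.22) and Gpx8 (1.04 ± 0.18) were higher as well. Gpx8 had 41.3 ± 10.7 CPM in Cth+/+ and 83.95 ± 10.3 CPM in Cth-/- libraries, with no overlap. In BAT Prdx6 was higher (0.46 ± 0.14, adjusted p = 0.01605), a call lost without replicate 18 (0.39, adjusted p = 0.0584), in a fit of the 2 groups alone (0.46, adjusted p = 0.0652) and within set B (0.31, adjusted p = 0.554). Gpx3 also passed with DESeq2 (0.83, adjusted p = 0.0464), and Prdx3 without replicate 7 (0.57, adjusted p = 0.0338) or 20 (0.55, adjusted p = 0.03705). Of the genes not yet given, Gpx4 was at -0.22 ± 0.09, Gpx1 at -0.21 ± 0.12, Gpx8 at 0.31 ± 0.24, Prdx5 at 0.12 ± 0.13 and both Prdx1 and Prdx2 within 0.02 of 0 in BAT. In SFAT Gpx1, Gpx4, Prdx1, Prdx2, Prdx5 and Prdx6 lay between -0.32 (Prdx6) and 0.19 (Gpx4).

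In EFAT 6 of these genes were lower in Cth-/- than in Cth+/+ mice on the cystine-free diet. Gpx1 (0.09 ± 0.16), Gpx8 (-0.04 ± 0.11) and Prdx3 (-0.40 ± 0.23) did not pass there. The log2 fold changes of the 6 were -0.68 ± 0.19 for Gpx4, -0.88 ± 0.18 for Gpx7, -0.75 ± 0.15 for Prdx1, -0.71 ± 0.19 for Prdx2, -0.76 ± 0.20 for Prdx5 and -0.86 ± 0.32 for Prdx6. All 4 Cth+/+ CysF libraries of EFAT were in set A, against 1 of 4 in Cth-/-, so the set and the genotype can hardly be told apart here. With the set as a term 3 of the 7 EFAT calls held: Gpx3 (2.13), Gpx7 (-0.73) and Prdx1 (-0.51). Within set A none of the 7 passed. Prdx6 was the least stable: without replicate 8, 10, 11, 17, 18 or 20 in turn it was at -0.98 to -0.64 (adjusted p 0.0557 to 0.151). Without replicates 16 and 20 together, Gpx4 was at -0.68 (adjusted p = 0.0575) and Prdx6 at -0.92 (adjusted p = 0.0995).

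Whether the diet acted differently in the 2 genotypes was tested as an interaction. None of the 10 genes passed in BAT (6.42% of all genes with edgeR), where 3 had an unadjusted p under 0.05 and DESeq2 called 1, Prdx6 (0.61, adjusted p = 0.0315). Over all genes DESeq2 called 1481 there, and the share under the unadjusted cut is not given here. In SFAT 3 passed (21.7% of all genes): Gpx3 (1.88 ± 0.57, adjusted p = 0.0292), Gpx7 (-1.26 ± 0.20, adjusted p = 0.0006614) and Prdx3 (1.07 ± 0.31, adjusted p = 0.0244). Gpx7 in SFAT kept its call under all 23 alternatives. The Gpx3 call in SFAT was lost without replicate 3, 4, 8, 12, 14 or 20 in turn (1.34 to 1.85, adjusted p 0.0511 to 0.0632) and without replicates 14 and 20 together (1.27, adjusted p = 0.099). That of Prdx3 was lost without replicate 1, 2, 7, 10, 13, 16 or 17 in turn (0.95 to 1.05, adjusted p 0.0512 to 0.05599) and within set B (0.73, adjusted p = 0.143). In EFAT Gpx3 (2.02 ± 0.55, adjusted p = 0.0328) and Gpx7 (-0.84 ± 0.25, adjusted p = 0.0454) passed, against 10.4% of all genes. Both were lost with the set as a term, at 1.56 (adjusted p = 0.399) and -0.58 (adjusted p = 0.521). Gpx3 in EFAT was also lost without replicate 3, 4, 8, 11, 12, 14, 17 or 20 in turn (1.80 to 1.91, adjusted p 0.0568 to 0.0768), and Gpx7 without replicate 1, 3, 4, 7, 8, 11, 12, 13, 14, 17 or 20 (-0.94 to -0.73, adjusted p 0.0549 to 0.0934). Prdx1 passed in EFAT without replicate 15 or 16 (-0.74 and -0.90), as did Prdx2 (-0.83 and -0.98) and Prdx5 (-0.88 and -1.08).

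The diet response of Cth-/- mice was then compared between depots in a fit of all 48 libraries without a replicate block. Between EFAT and BAT 4 of the 10 genes differed (16.2% of all genes), all peroxiredoxins with the lower response in EFAT: Prdx1 (-0.75 ± 0.23, adjusted p = 0.0249), Prdx2 (-0.80 ± 0.27, adjusted p = 0.0365), Prdx5 (-1.12 ± 0.28, adjusted p = 0.005138) and Prdx6 (-1.39 ± 0.43, adjusted p = 0.0233). Prdx5 kept its call when any 1 replicate number was left out, but not within set A (-0.80, adjusted p = 0.135) or set B (-0.68, adjusted p = 0.356). Prdx1, Prdx2 and Prdx6 lost it without number 12, 14, 17 or 18 in turn, at -0.71 to -0.61 (adjusted p 0.0712 to 0.132), -0.75 to -0.62 (adjusted p 0.101 to 0.172) and -1.34 to -1.15 (adjusted p 0.0741 to 0.124). With the set as a term Prdx2 (-0.49, adjusted p = 0.0722) and Prdx6 (-1.07, adjusted p = 0.0718) missed the threshold. Between EFAT and SFAT Prdx3 (-1.12 ± 0.33, adjusted p = 0.0438) and Prdx5 (-0.92 ± 0.28, adjusted p = 0.0458) differed, against 4.38% of all genes. Both were lost without number 12, 13, 14, 17, 18 or 20 in turn, Prdx3 also without 16, at -1.20 to -0.96 (adjusted p 0.0632 to 0.179) and -0.96 to -0.80 (adjusted p 0.0748 to 0.189). With the set as a term they were at -0.72 and -0.66 and did not pass either. Between SFAT and BAT none passed with edgeR or DESeq2 (2.16% of all genes with edgeR), and 2 had an unadjusted p under 0.05. No share of all genes under the unadjusted cut is given here. The response of Gpx3 was higher in SFAT than in BAT by 1.38 ± 0.56 (adjusted p = 0.212). In EFAT it was higher than in BAT by 1.47 ± 0.56 (adjusted p = 0.0641). Neither passed. The EFAT difference did pass with DESeq2 (1.49, adjusted p = 0.0413) and without number 15 (1.67, adjusted p = 0.0487). Fits with the replicate number as a block are given below.

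Summed over the 10 genes, Cth-/- mice had 1061 ± 36.0 CPM per kb in SFAT on CTRL and 1806 ± 465 on CysF, 1250 ± 67.7 and 1963 ± 413 in EFAT, and 2853 ± 156 and 3426 ± 198 in BAT (SD, n = 4). The ranges were apart in each depot. Gpx3 made up 20.6% ± 4.11 of that sum on CTRL and 45.1% ± 15.3 on CysF in SFAT, 24.3% ± 10.5 and 62.6% ± 13.2 in EFAT, and 30.9% ± 3.77 and 38.98% ± 9.38 in BAT. Without Gpx3, the other 9 genes summed to 844 ± 62.5 and 942 ± 121 CPM per kb in SFAT, where the ranges overlapped, and to 948 ± 160.1 and 695 ± 94.8 in EFAT, where the CTRL range of 744.8 to 1094 overlapped the CysF range of 606.1 to 828.1. In BAT they summed to 1967 ± 69.3 and 2078 ± 227 CPM per kb, with overlapping ranges of 1893 to 2045 and 1752 to 2261.

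Of the 4 other genes of these families, Gpx2 and Gpx6 were near 0, with at most 1 read per group for Gpx2 and at most 0.962 CPM in a library for Gpx6. Prdx4, the peroxiredoxin of the endoplasmic reticulum, fell in EFAT from 13.96 ± 1.16 to 7.44 ± 2.89 CPM (-0.85 ± 0.18, adjusted p = 0.004237) and did not pass in BAT or SFAT. Gpx5, which the epididymis secretes, was at 280.2 and 979.1 CPM in EFAT replicates 16 and 20 and at 0.341 CPM or less in the other 2 Cth-/- CysF libraries, that is, in the 2 libraries with epididymal transcripts.

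Partner pathways were read from lists of known genes. Of all genes tested, 18.0%, 25.4% and 28.8% were called in BAT, SFAT and EFAT. Of the glutathione synthesis genes, 4 of 5 rose in EFAT, 3 in SFAT and 2 in BAT, and none fell. Gclc, the catalytic subunit of the rate-limiting ligase, rose by 1.00 ± 0.16 in EFAT (28.9 ± 5.31 to 55.3 ± 11.2 CPM) and 0.71 ± 0.11 in SFAT. Gss, glutathione synthetase, rose by 0.94 ± 0.22 in BAT and 0.62 ± 0.17 in SFAT. Slc7a11, the cystine transporter subunit, rose by 1.499 ± 0.50 in EFAT from under 1 CPM (0.982 ± 0.303), and Slc3a2, its partner, rose in all 3 depots.

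Of the 15 genes of the thioredoxin and glutaredoxin system, which returns electrons to peroxiredoxins and glutathione, 4 rose in BAT, 5 rose and 1 fell in SFAT, and 4 rose and 2 fell in EFAT. Those with the largest changes included Glrx5 (0.70 ± 0.16 in BAT, 0.985 ± 0.18 in SFAT), a mitochondrial glutaredoxin. Sesn2, a stress-induced sestrin, rose by 1.05 ± 0.27 in BAT. Txnip, which binds and inhibits thioredoxin, rose by 1.44 ± 0.36 in EFAT, from 559 ± 239.6 to 1461 ± 440.5 CPM. Srxn1, the sulfiredoxin that repairs over-oxidised peroxiredoxins, fell by 0.47 on the log2 scale in EFAT (± 0.13).

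Of the genes that supply selenium and insert selenocysteine, 1 rose and 1 fell among 11 tested in BAT, 3 rose among 11 in SFAT, and 3 rose and 1 fell among 12 in EFAT. Sephs2, which makes selenophosphate, rose in all 3 depots (0.81 ± 0.16, 1.00 ± 0.13 and 0.46 ± 0.10 in BAT, SFAT and EFAT). Scly, which frees selenium from selenocysteine, rose by 0.92 ± 0.11 in EFAT and 0.41 ± 0.12 in SFAT but fell by 0.37 on the log2 scale in BAT. Of the other selenoproteins, 1 rose and 1 fell among 12 tested in BAT, 4 rose and 2 fell among 12 in SFAT, and 4 fell among 13 in EFAT. Selenon fell in each depot (-0.59 ± 0.14, -1.01 ± 0.16 and -0.62 ± 0.14), and Dio2, which is also on the list of brown adipocyte markers, rose in SFAT by 4.03 ± 0.68.

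Catalase, the peroxisomal enzyme that removes hydrogen peroxide without glutathione, rose in both white depots, from 640.5 ± 27.6 to 1139 ± 332 CPM in SFAT (0.85 ± 0.16) and from 601 ± 52.4 to 1035 ± 334 CPM in EFAT (0.85 ± 0.20). Of its list of 5, 1 gene rose in BAT, 3 in SFAT and 2 in EFAT. Of the 8 NADPH-supplying genes, 3 fell in EFAT (Pgd -1.66 ± 0.34, Idh1 -1.25 ± 0.20, G6pdx -0.83 ± 0.27), none passed in SFAT, and 1 rose and 2 fell in BAT, where malic enzyme Me1 fell by 1.03 on the log2 scale. Of the 9 measured genes of oxidative protein folding, 1 rose in BAT, 1 fell in SFAT and 3 fell in EFAT. P4hb, protein disulfide isomerase, fell in SFAT (-0.445 ± 0.13) and EFAT (-0.62 ± 0.12). Of the genes of lipid peroxide metabolism beside Gpx4, 1 rose and 1 fell among 11 tested in BAT, and 2 fell among 12 in each white depot. Alox5, a lipoxygenase of leukocytes, fell in SFAT (-1.09 ± 0.15) and EFAT (-1.10 ± 0.18). Of 10 NRF2 targets, several of which also stand on the lists above, 1 fell in BAT, 1 rose in SFAT, and 3 rose and 3 fell in EFAT. No list was tested against the share of all genes called, which was 18.0%, 25.4% and 28.8%. The selenium supply list in BAT, SFAT and EFAT and the other selenoproteins in BAT and EFAT were near it. So were the lipid peroxide and catalase lists in BAT and the folding list in EFAT. The lipid peroxide list in the white depots was below it, as were the NRF2 and folding lists in BAT and SFAT and the NADPH list in SFAT.

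Genes whose pattern was most like each member's were sought by Pearson r of log2 CPM over the 48 libraries, after taking out each depot's mean, among 10052 genes. Kiz (r = 0.924) and Pdk2 (r = 0.922) were most like Gpx3, Traf3 (r = 0.938) and Maged2 (r = 0.937) most like Gpx7, and Ppa1 (r = 0.84) and Tgoln1 (r = 0.791) most like Gpx8. Gpx1 had the weakest partners, Angpt1 (r = 0.702) and Bbx (r = 0.597), and Gpx4 had Mecr (r = 0.905) and Ank (r = 0.889). For Prdx3 they were Grpel1 (r = 0.976) and Uqcrfs1 (r = 0.972), for Prdx1 Mrpl53 (r = 0.958) and Mrps14 (r = 0.956), and for Prdx2 Tsfm (r = 0.963) and Mrps14 (r = 0.962). Ywhaq (r = 0.932) and Acad9 (r = 0.931) were most like Prdx5, and Med9 (r = 0.909) and Atp6v1h (r = 0.906) most like Prdx6. The libraries share their set, depth and group structure, so these values describe likeness and are not tested.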

How the data were processed

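Poly(A) RNA of 48 mouse fat libraries was sequenced by the authors. The deposited table gives RSEM expected counts per gene. Per the submitters' processing notes, FastQC, STAR, Picard and RSEM were used with mm10; their versions, the annotation release and the strandedness are not given in what was used here. Each library was grouped by its label (depot, genotype, diet). Expected counts were rounded to whole numbers and tested with edgeR 4.0.16 (R 4.3.3, limma 3.58.1): TMM scaling, filterByExpr (minimum count 10, minimum total 15), quasi-likelihood F-test and Benjamini-Hochberg adjustment over all genes, with a threshold of 0.05. Each depot's 16 libraries were fitted in 4 groups, and depots were compared in 1 fit of 48 libraries. SE is the log2 fold change divided by the square root of F. CPM per kb used the principal transcript of GENCODE M21. Tables and figures were made with Python 3.11.15, pandas 2.3.3 and matplotlib 3.10.9.

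The rule was to name all 10 members in each comparison described; some that did not pass are given by their range or count alone. From each pathway list the passing genes with the largest changes and a mean of at least 1 CPM could be named, and for likeness the 2 genes with the highest r among those of at least 5 CPM. The members and lists were chosen with earlier results of these data known. Alternatives were RLE scaling, no filter, DESeq2 1.42.0, a fit of only the groups compared, leaving out each replicate, the library set as a term and the replicate number as a block. Leaving out the libraries that stood apart and fits within each set were added after seeing the data. The scripts were tested on simulated data, and the limits for passing were loosened after the outcome was seen. There DESeq2 made a larger share of false calls than edgeR, so calls made only by DESeq2 need caution.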

Additional observations from a re-analysis of the deposited data

Results flagged for a closer look

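In 5 of 120 groups of 4 libraries, 1 library lay far from the other 3 by Dixon's criterion, which chance alone meets in about 1 in 20 groups. Gpx7 was at 9.196 CPM in replicate 2 of Cth+/+ CTRL in EFAT, with the others at 7.432 to 7.724. Gpx8 was low at 59.17 CPM in replicate 18 of Cth-/- CysF in BAT (others 69.95 to 71.09) and high at 99.28 CPM in replicate 20 of the same group in SFAT (others 77.9 to 80.02). Prdx1 was at 234.0 CPM in replicate 16 of Cth-/- CysF in EFAT (others 151.6 to 162.4). Prdx6 was at 150.2 CPM in replicate 10 of Cth+/+ CysF in BAT (others 239.9 to 244.9). SFAT replicate 20, EFAT replicate 16 and BAT replicate 10 are among the libraries that stood apart.

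The diet response differed between the genotypes, by the interaction test, for Gpx3 (1.88), Gpx7 (-1.26) and Prdx3 (1.07) in SFAT and for Gpx3 (2.02) and Gpx7 (-0.84) in EFAT. The share of all genes called was 21.7% in SFAT and 10.4% in EFAT. Only Gpx7 in SFAT kept its call under all 23 alternatives. Gpx3 and Prdx3 lost theirs in 7 and 8 of 23 in SFAT, and Gpx3 and Gpx7 in 10 and 14 of 22 in EFAT. In Cth-/- mice the diet response differed between EFAT and BAT for Prdx1 (-0.75), Prdx2 (-0.80), Prdx5 (-1.12) and Prdx6 (-1.39), and between EFAT and SFAT for Prdx3 (-1.12) and Prdx5 (-0.92), all on the log2 scale. The shares of all genes were 16.2% and 4.38%. Of 16 alternatives, the calls against BAT were lost in 6, 8, 2 and 8, and those against SFAT in 11 and 10.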

How the results depend on the processing

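Of 3420 log2 fold changes of the 10 genes recomputed under an alternative, 3195 kept their side of the threshold, 71 gained a call, 152 lost one and 2 reversed; 203 that were called in neither fit had another sign. Those that reversed were Prdx6 in SFAT within set B, for diet in Cth-/- mice (-0.92, against 0.05) and in Cth+/+ mice (-0.56, against 0.02); the first rests on replicate 20 as the only CysF library.

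The number of the 10 genes called for diet in Cth-/- mice was 3 in BAT (0 within set B, 1 to 2 without 1 replicate), 3 in SFAT (5 within set A) and 5 in EFAT (3 with the set as a term and 0 within either set, A or B, 3 to 8 without 1 replicate). For diet in Cth+/+ mice, 0 in SFAT became 3 within set B, where the calls over all genes went from 11 to 1053. For genotype on the control diet, 0 in BAT became 1 with DESeq2, 1 with the set as a term, 2 without the libraries that stood apart and 2 within set A, and 0 in SFAT became 4 within set A. Over all genes the calls within set A went from 305 to 1095 in BAT and from 17 to 1411 in SFAT. For genotype on the cystine-free diet, 2 in BAT became 4 with DESeq2, 1 in a fit of the 2 groups, 4 with the set as a term, 5 within set A and 0 within set B (1 to 3 without 1 replicate), and 7 in EFAT became 3 with the set as a term and 0 within set A. For the interaction, 0 in BAT became 1 with DESeq2, 1 with the set as a term and 1 within set A (0 to 1 without 1 replicate), and 2 in EFAT became 1 with no filter, 0 with the set as a term and 0 within set A (0 to 5 without 1 replicate). Within a set fewer libraries are tested. The calls over all genes also changed with the setting, as the ranges below show, so these counts are not read as a trait of the 10 genes. Otherwise the cause was not tested.

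For the depot difference of the diet response, 4 between EFAT and BAT became 2 with the set as a term and 0 inside set A or set B (1 to 6 without 1 replicate number). Between EFAT and SFAT, 2 became 0 with no filter, 0 with the set as a term, 0 inside set A or set B, and 4 without the libraries that stood apart (0 to 3 without 1 number). With the replicate number as a block, 5, 4 and 1 genes were called for EFAT against BAT, EFAT against SFAT and SFAT against BAT, in place of 4, 2 and 0. Over all genes the block gave 4231, 2234 and 892 calls in place of 2976, 804 and 397. The genes gained were Gpx3 against BAT in both white depots (1.49 in EFAT, adjusted p = 0.002358, and 1.29 in SFAT, adjusted p = 0.0219) and Gpx4 (-0.645, adjusted p = 0.0216) and Gpx8 (-0.83, adjusted p = 0.0216) for EFAT against SFAT. Same-numbered libraries of these depots correlated above 0.1 in 8, 13 and 11 of 16 pairs, and a library correlated best with its own number in 7, 12 and 11. That is a hint of pairing from the data; the labels do not state it and not every pair passed 0.1, so the fit without the block was kept.

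Over all genes, the counts for diet in Cth-/- mice ranged from 333 to 3138 in BAT (2617 as reported), 2939 to 4997 in SFAT (4208) and 65 to 5893 in EFAT (4976). For genotype on the cystine-free diet they were 458 to 5083 (4589), 4697 to 6787 (6213) and 85 to 7491 (6841), and for the interaction 2 to 1481 (932), 2122 to 4293 (3600) and 3 to 3414 (1792). For genotype on the control diet they were 1 to 1095 (305), 2 to 1411 (17) and 0 to 41 (8), and for diet in Cth+/+ mice 0 to 163 (12), 0 to 1053 (11) and 0 to 36 (0). For the depot differences of the response they were 132 to 4231 for EFAT against BAT (2976), 3 to 2234 for EFAT against SFAT (804) and 42 to 892 for SFAT against BAT (397). For the level difference of EFAT against SFAT they were 266 to 3569 (2793). Gpx7, with as few as 21 reads in a library, is the member whose precision depth limits most.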

Other observations

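Within the Cth-/- CTRL group, replicates 13 and 15 differed from 12 and 14 in the same way in 2 of the 3 depots for Prdx6, Gpx8 and Gpx3. Prdx6 was at 140.5 and 129.3 CPM against 244.8 and 257.6 in SFAT, and at 239.8 and 181.8 CPM against 490.6 and 505.1 in EFAT. Gpx8 was at 102.3 and 109.2 CPM against 48.06 and 49.04 in BAT, and at 63.91 and 79.48 CPM against 44.45 and 53.13 in SFAT. Gpx3 was at 377.8 and 424.6 CPM against 288.6 and 297.4 in SFAT, and at 609.7 and 674.1 CPM against 270.6 and 366.0 in EFAT. The third depot did not follow. In BAT Prdx6 was higher in 13 and 15 (210.8 and 219.4 CPM) than in 12 and 14 (189.8 and 191.3), and Gpx3 was at 1210 and 1423 CPM against 1750 and 1266. In EFAT Gpx8 was at 24.71 and 20.06 CPM against 24.13 and 22.94. In BAT and SFAT replicates 13 and 15 were in set A and 12 and 14 in set B, whereas in EFAT 12, 13 and 14 were in set A and 15 in set B. The labels do not say whether a number marks the same mouse in each depot. The pattern was seen after its values were known and was not tested.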
